A study of Chlamydomonas reinhardtii with 9 samples.

Results

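The rescued strain of a CEHC1 mutant of Chlamydomonas reinhardtii, a unicellular green alga, was compared with the wild type. The comparison used 6 of the 9 RNA-seq libraries of the series, chosen by their labels: 3 of the rescued strain, B6-F_resc, and 3 of the wild type, B6. B6 carried the wild-type CEHC1 gene. According to the labels, B6-F_resc came from B6-F, a strain with the cehc1-1 mutation, by transformation with the wild-type gene. The 3 libraries of B6-F are called the mutant and are given beside the results. Each library was a separate culture, and all strains grew alike, with aeration in TAP, a medium that contains acetate, under a daily 14 h of light and 10 h of darkness. Cells were taken 6 h after the lights came on. The labels name 1 rescued strain and not how many transformants it represents, and they do not describe the lesion in the mutant. A difference between the strains can therefore be tied to the strain but not to the added gene alone.

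Copper shortage in this alga is sensed through CRR1, a transcription factor that switches on genes for copper uptake and for proteins that replace copper enzymes. Some of the same genes, and those for making hydrogen, also come on when oxygen runs out. Cells grown under cycles of light and darkness divide after dusk, and genes of chloroplast building, DNA replication and cilia peak at different times of that cycle. Mating type is set by a locus on chromosome 6 with a plus and a minus form, and MID of the minus form decides the minus sex.

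Expression was deposited as FPKM, the fragments of a gene scaled by its length and by the size of the library, for 17609 gene models. Differences are on the log2(FPKM + 1) scale, rescued strain minus wild type, which understates changes of genes with low FPKM. They were tested for 10940 genes, those whose mean over the 6 libraries reached 1 FPKM, with limma. A gene was called at a Benjamini-Hochberg adjusted p under 0.05 and an absolute difference of at least 1. Read numbers are unknown. Library sums of FPKM lay between 970073 and 1108532 in the wild-type libraries and between 888153 and 1002223 in the rescued ones. Across the tested genes, Pearson's r was 0.992 to 0.993 within the wild type, 0.990 to 0.994 within the rescued strain and 0.972 to 0.979 between them. Genes are not independent replicates, so these values describe the libraries only.

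Differences from the wild type were spread over many genes. Of the 10940 genes, 256 were called, or 2.34%, with 73 higher (0.667%) and 183 lower (1.67%). An adjusted p under 0.05, whatever the size of the difference, was reached by 3616 genes (33.1%), 1583 of them higher (14.5%) and 2033 lower (18.6%). The median difference over all tested genes was -0.03.

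CEHC1 itself (Cre01.g005900_4532) was at 9.10, 7.07 and 9.77 FPKM in the wild-type libraries and at 26.2, 25.4 and 27.9 in the rescued libraries. Every rescued library lay above every wild-type library, with a difference of 1.52 (SE 0.12, adjusted p = 0.00013). The mutant libraries lay between them, at 17.4, 18.0 and 16.2 FPKM. The next gene in identifier order, Cre01.g005950, was lower instead, going from 11.1, 13.1 and 23.0 FPKM in wild-type libraries to 3.04, 1.93 and 2.10 in rescued libraries, a difference of -2.27 (SE 0.24, adjusted p = 0.00063). It was at 21.7, 23.4 and 15.7 FPKM in mutant libraries, within or above the wild-type range. The tables do not name this gene, and it was chosen after its values were seen. Strand-aware counting is stated nowhere in the sources used here, so reads from overlapping neighbours cannot be told apart.

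The copper and hydrogen genes that stood far from the wild type in the mutant were near it in the rescued strain. None of the 14 tested copper deficiency genes and none of the 12 tested hydrogenase and fermentation genes was called. The minimum left out 1 matched copper gene and 6 matched hydrogenase and fermentation genes, which were PFR1, HYDG1, HYDEF1, HCP1, HCP3 and HCP4. HYDG1 was at 0.378, 0.154 and 0.235 FPKM in wild-type libraries and 0.0826, 0.0669 and 0.111 in rescued libraries. In mutant libraries it was at 37.9, 39.0 and 40.9 FPKM. CYC6, the cytochrome that stands in for plastocyanin when copper is short, was at 0.122, 0.311 and 0.136 FPKM in wild-type libraries, 0.223, 0.113 and 0.187 in rescued libraries and 502, 537 and 663 in mutant libraries, and was below the minimum for the test. The ferredoxin gene FDX5 was at 7.76, 8.49 and 6.47 FPKM in wild-type libraries and at 10.9, 8.20 and 8.77 in rescued libraries, with overlapping ranges, against 1572, 1595 and 2101 in mutant libraries. Its difference was 0.26 (SE 0.13, adjusted p = 0.14).

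Smaller differences between the rescued strain and the wild type were seen in both directions. Among the copper genes, 4 had an adjusted p under 0.05 and all 4 were higher in the rescued strain (against 14.5% of all genes), and the list's median was 0.29. CPX1, a coproporphyrinogen oxidase of haem and chlorophyll synthesis, was at 225, 169 and 248 FPKM in wild-type libraries and at 279, 376 and 393 in rescued libraries. All rescued libraries were above all wild-type libraries, by 0.71 (SE 0.17, adjusted p = 0.015), against 2.55 for the mutant. The copper transporter gene CTR2 differed by 0.59 (SE 0.14, adjusted p = 0.014), from 4.15, 4.73 and 2.98 to 7.00, 5.86 and 6.30 FPKM. Among the tested hydrogen and fermentation genes, 5 had an adjusted p under 0.05, all 5 lower (against 18.6% of all genes), with a median of -0.29. Of those below the minimum, HYDEF1, HCP4 and PFR1 were above the wild type in every rescued library. HYDG1 was below it, and HCP1 and HCP3 overlapped. HYDA1, a hydrogenase, was at 13.5, 11.5 and 10.3 FPKM in wild-type libraries, 8.99, 7.39 and 7.24 in rescued libraries and 101, 100.0 and 95.9 in mutant libraries. The rescued libraries were the lowest of the 3 strains without overlap, with a difference of -0.52 (SE 0.12, adjusted p = 0.013) from the wild type. HYDA2, the other hydrogenase gene, was at 3.11, 2.39 and 2.31 FPKM in wild-type libraries and 1.65, 1.30 and 0.992 in rescued libraries, a difference of -0.64 (SE 0.13, adjusted p = 0.0089). CRR1 was at 43.2, 47.9 and 40.2 FPKM in wild-type libraries and 64.8, 47.8 and 53.5 in rescued libraries, and the groups overlapped, with a difference of 0.32 (SE 0.12, adjusted p = 0.071).

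The strains also differed at the mating-type locus. MID1, which carries the minus sex, was listed at 0 in all 3 wild-type and all 3 mutant libraries and at 2.89, 2.46 and 3.29 FPKM in the rescued libraries. MTD1, another gene of the minus locus, was at 0 in the same 6 libraries and at 0.0954, 0.0483 and 0.0711 FPKM in rescued libraries. FUS1, a fusion protein of plus gametes, went the other way, with 0.132, 0.285 and 0.183 FPKM in wild-type libraries, 0.323, 0.272 and 0.228 in mutant libraries and 0 in all 3 libraries of the rescued strain. FUS1 and MTD1 were below the minimum for the test and are given as values. The rescued strain thus held minus-locus transcripts and the other 2 strains did not, although the labels describe it as a transformant of the mutant. The added CEHC1 copy and whatever else differs with the mating type cannot be told apart in this comparison.

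Genes near 0 in 1 strain and clearly present in the other were few and lay mostly on chromosome 6. The criterion was under 0.05 FPKM in all 3 libraries of 1 strain and at least 1 FPKM in all 3 of the other. It was met by 8 of the 17609 gene models, or 0.0454%. Of these, 5 were near 0 in the rescued strain, all on chromosome 6. The other 3 were near 0 in the wild type, 2 on chromosome 6, MID1 among them, and 1 on chromosome 14. Cre06.g253051, the largest fall among genes without a symbol, was at 21.4, 19.6 and 21.4 FPKM in wild-type libraries, 13.1, 13.2 and 13.1 in mutant libraries and 0.0239, 0.0242 and 0 in rescued libraries. Its difference was -4.42 (SE 0.08, adjusted p = 4.2e-08). Cre14.g623576, the largest rise among genes without a symbol, was listed at 0 in the wild type and was at 12.2, 11.9 and 5.25 FPKM in rescued libraries. In the mutant it ran from 0.363 to 9.28 FPKM between libraries of 1 strain.

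The other pair without a symbol lay outside that criterion. Cre06.g800658 was at 0.353, 0.225 and 0.245 FPKM in wild-type libraries, 0.318, 0.162 and 0.429 in mutant libraries and 8.21, 13.4 and 11.8 in rescued libraries, and rose by 3.23 (SE 0.16, adjusted p = 1.2e-05). Cre08.g375450 was at 26.5, 23.7 and 26.3 FPKM in wild-type libraries but at 0.615, 0.934 and 0.779 in mutant libraries and 0.490, 0.447 and 0.644 in rescued libraries. The mutant and the rescued strain were both low here, and the rescued strain differed from the wild type by -4.12 (SE 0.09, adjusted p = 8.9e-08).

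**Figure D1:**
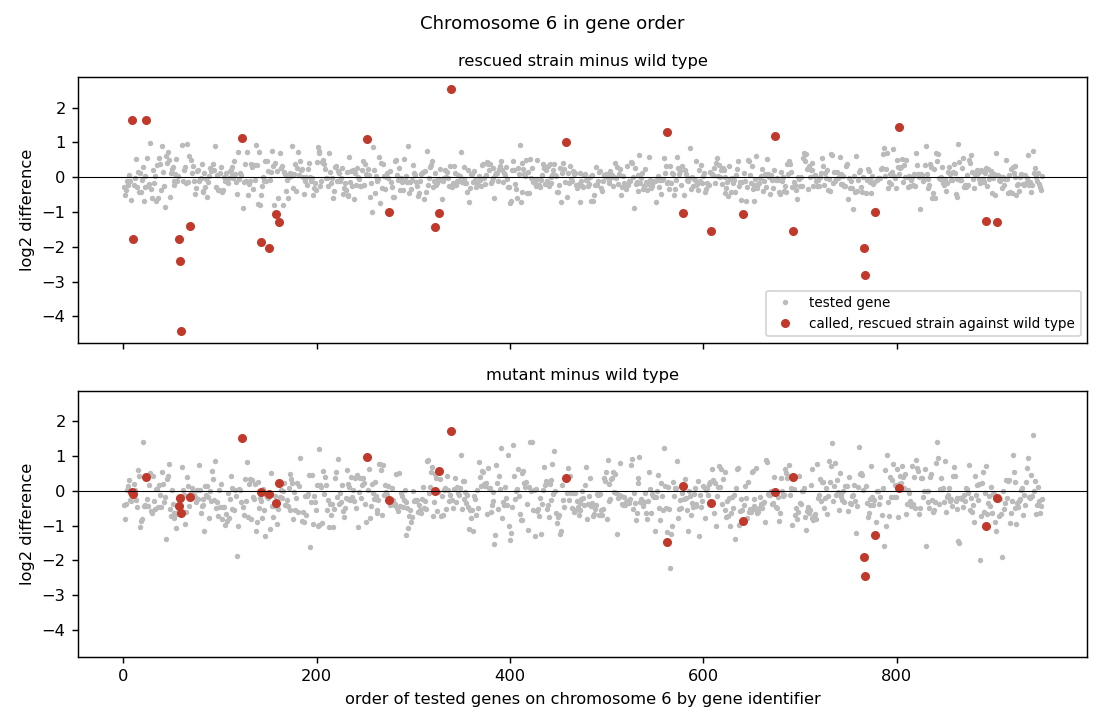
Tested genes of chromosome 6 in identifier order (x axis, rank; identifiers numbered from g800000 are not placed) with the log2(FPKM + 1) difference of the rescued strain (upper panel) and of the mutant (lower panel) from the wild type. Red points are genes called in the rescued strain; the 3 neighbouring falls near the left end reach -4.42 in the upper panel and lie between -0.63 and -0.20 in the lower one.

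Along the chromosomes, called genes were spread thinly. Chromosome 6 held 36 called genes of 1003 tested (3.59%), chromosome 11 held 12 of 339 (3.54%), chromosome 15 held 4 of 121 (3.31%) and chromosome 12 held 36 of 1150 (3.13%), against 2.34% of all genes. Chromosome 4 had the lowest share of the 17 chromosomes, with 3 of 307 (0.977%). Later-numbered identifiers, from g800000, are not placed in order and were counted apart. Of these, 24 of 630 were called (3.81%), and on chromosome 6 the count was 6 of 53 (11.3%).

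**Figure D2:**
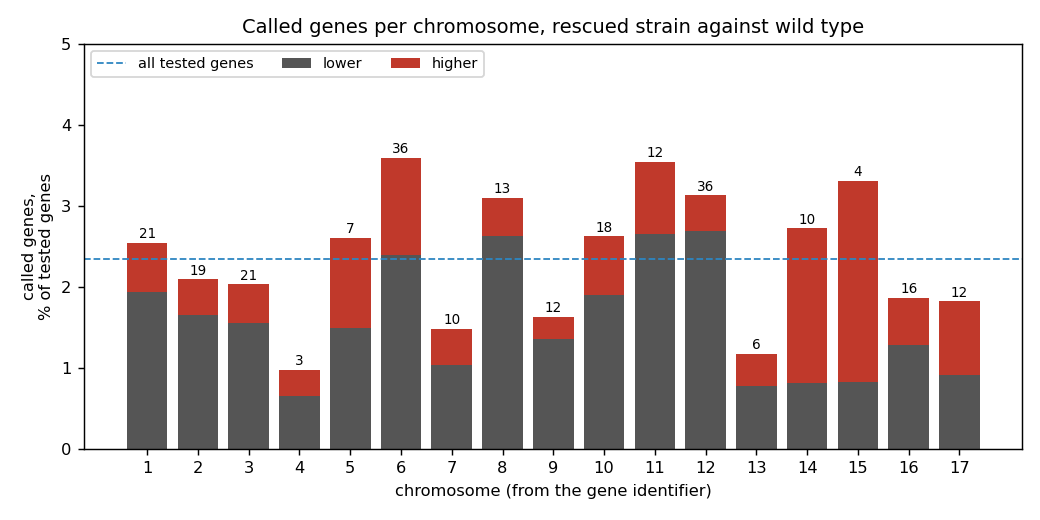
Called genes as a percentage of tested genes on each of the 17 chromosomes, split into lower (grey) and higher (red) in the rescued strain. Digits give the number called, and the dashed line is the share over all tested genes, 2.34%.

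Among the 10251 tested genes placed in identifier order, no stretch was filled with called genes. Identifiers from g800000, with MID1 and other called genes of chromosome 6, were outside this count. Of 418 blocks of 25 consecutive tested genes, 0 held 5 or more called genes and 2 held 4. Both blocks of 4 lay where named genes help to place them. The one on chromosome 6 ran from Cre06.g252350 to Cre06.g254800, spans FUS1 and held 4 falls. They were FUM1, a fumarase, and 3 neighbours in a row, Cre06.g252850, Cre06.g252892 and Cre06.g253051, whose differences were -1.78, -2.40 and -4.42. FUM1 was at 48.6, 55.3 and 66.3 FPKM in wild-type libraries, 51.5, 46.0 and 50.8 in mutant libraries and 19.0, 20.2 and 23.1 in rescued libraries, and fell by 1.40 (SE 0.13, adjusted p = 0.00031). MAT3, the retinoblastoma-related gene near the same locus, was at 15.0, 17.6 and 15.0 FPKM in wild-type libraries and 12.4, 10.7 and 11.8 in rescued libraries, lower in every library, with a difference of -0.42 (SE 0.10, adjusted p = 0.013). The mutant libraries, at 12.7, 14.6 and 12.9 FPKM, were also below every wild-type library. With limma over all 9 libraries, the rescued strain differed from the mutant by -0.19 (adjusted p = 0.095) for MAT3. The other block, on chromosome 9 from Cre09.g393900 to Cre09.g394600, held 1 rise and 3 falls. These genes were chosen after their values were seen.

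Called genes next to each other formed 14 runs with 29 of the 232 called genes that could be placed in order. The longest run was the 3 genes on chromosome 6, and 9 runs moved in 1 direction. Pherophorin genes made up 2 of them: PHC5 and PHC35 were neighbours on chromosome 5, with differences of 1.01 and 1.49, and PHC2 and PHC24 were neighbours on chromosome 14. The nucleoredoxin genes NRX2 and NRX3 on chromosome 2 were another, at -1.02 and -1.23. How reads shared by near-identical neighbours were assigned is unknown here, so such pairs may not be separate measurements.

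Differences were sorted by what the mutant showed. The comparison of mutant with wild type shares the wild-type libraries, so the sorting describes these strains and tests nothing. In a fit over all 9 libraries, the mutant was called against the wild type in 1068 of 11360 genes (9.40%), and the rescued strain against the mutant in 1043 (9.18%). Of the 256 genes called in the rescued strain, 58 were also called in the mutant in the same direction and are termed left. Another 104 were added: the rescued strain was called against the mutant as well, and the mutant was not called against the wild type. In 16 the mutant had been called in the opposite direction, and 78 met none of these conditions, 4 of them because they did not reach the minimum mean over the 9 libraries. Of the 73 rises 28 were left and 21 added, and of the 183 falls 30 were left and 83 added.

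Among the 10 largest rises, the zinc gene ZCP1, a putative metal chaperone, was termed left. It was at 0.211, 0.185 and 0.268 FPKM in wild-type libraries, 4.81, 7.49 and 5.78 in rescued libraries and 7.79, 8.90 and 8.94 in mutant libraries. The rescued strain exceeded the wild type by 2.51 (SE 0.14, adjusted p = 1.7e-05) without overlap. It was the only one of 13 tested zinc transport and zinc response genes called (7.69%, against 2.34% of all genes). Another 5 had an adjusted p under 0.05 and were lower (against 18.6% of all genes), and the list's median was -0.24. KUP2, a potassium transporter gene, was above every wild-type library in both strains, at 6.11, 7.88 and 3.01 FPKM in wild-type libraries, 14.1, 15.0 and 12.9 in rescued libraries and 16.7, 12.3 and 11.8 in mutant libraries. Its difference of 1.24 (SE 0.25, adjusted p = 0.0076) was 0.91 without wild-type replicate 3.

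Other rises differed in their mutant values. DMC3, on chromosome 6, was at 1.75, 2.00 and 1.70 FPKM in wild-type libraries, 1.72, 1.61 and 1.98 in mutant libraries and 7.95, 7.38 and 8.19 in rescued libraries. The wild type and the mutant overlapped and the rescued strain stood apart, by 1.65 (SE 0.09, adjusted p = 1.7e-05). The glutaredoxin gene GRX6 was raised from 12.7, 11.6 and 13.3 to 25.9, 38.9 and 31.0 FPKM, by 1.26 (SE 0.14, adjusted p = 0.00074), and was below the wild type in the mutant, at 5.93, 8.10 and 7.98 FPKM. FAP346, a flagella-associated protein gene, was at 1.84, 4.67 and 0.762 FPKM in wild-type libraries, 7.42, 7.44 and 6.17 in rescued libraries and 0.179, 0.287 and 0.177 in mutant libraries. Wild-type libraries spread widely here, and the rise of 1.39 (SE 0.35, adjusted p = 0.018) was 0.99 without wild-type replicate 3 and had an adjusted p of 0.063 with robust moderation. SSS3B, a soluble starch synthase, was the only called gene of 23 in starch metabolism (4.35%, against 2.34% of all genes). It was at 3.61, 4.97 and 3.42 FPKM in wild-type libraries, 11.4, 10.5 and 9.04 in rescued libraries and 9.36, 8.42 and 8.82 in mutant libraries, and rose by 1.19 (SE 0.13, adjusted p = 0.00088).

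**Figure D3:**
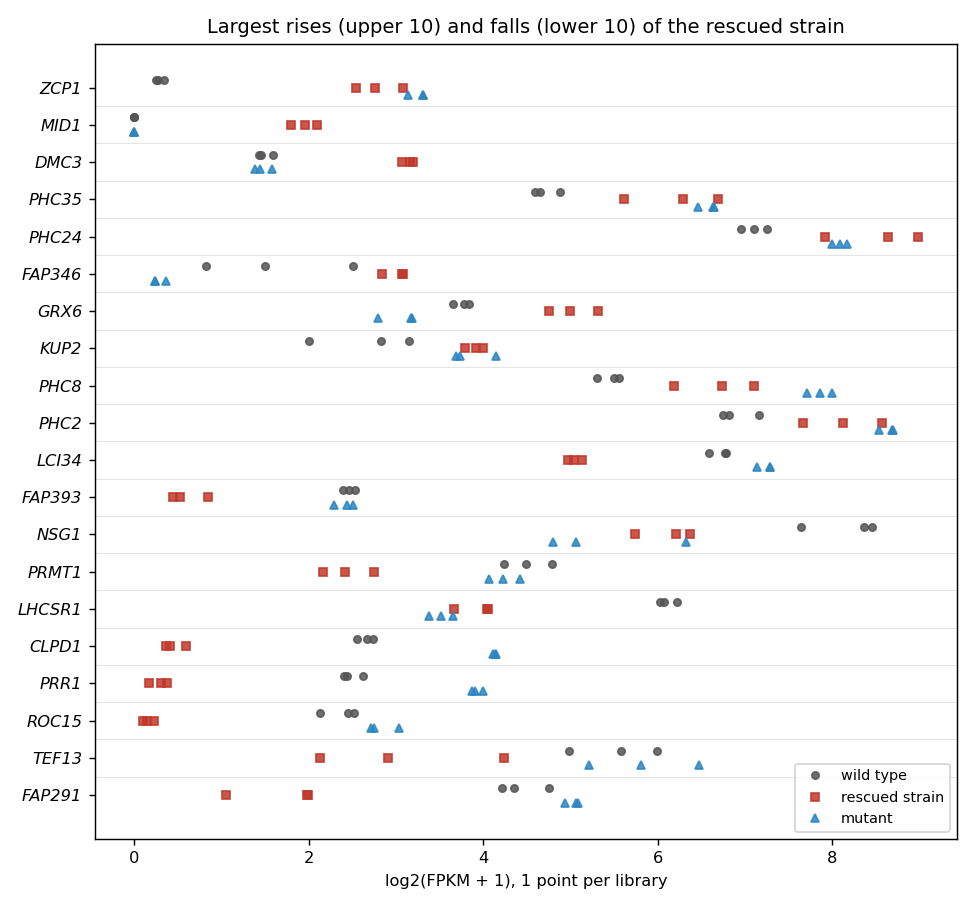
Level of the 10 largest rises and 10 largest falls with a symbol, as log2(FPKM + 1) (x axis), with 1 point for each of the 9 libraries. Rescued libraries (red squares) lie beyond all wild-type libraries (grey circles) in each gene, as the choice of these genes required; mutant libraries (blue triangles) sit with the rescued strain for ZCP1 and LHCSR1 and with the wild type for DMC3 and FAP393.

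The falls included ROC15 and PRR1. ROC15, a transcription factor of the circadian clock of this alga, was at 4.73, 3.36 and 4.47 FPKM in wild-type libraries, 7.23, 5.58 and 5.72 in mutant libraries and 0.111, 0.174 and 0.0688 in rescued libraries. Rescued libraries were far below the rest, with a difference of -2.21 (SE 0.12, adjusted p = 1.7e-05) from the wild type. PRR1, a pseudo-response regulator, was at 4.42, 5.14 and 4.30 FPKM in wild-type libraries, 15.0, 14.0 and 13.6 in mutant libraries and 0.233, 0.124 and 0.303 in rescued libraries, so that the mutant was above and the rescued strain below the wild type, the latter with a difference of -2.20 (SE 0.10, adjusted p = 1.2e-05). The other ROC genes, named for the same screen for clock mutants, did not go with ROC15. ROC75 was at 4.04, 4.09 and 4.14 FPKM in wild-type libraries and 8.46, 4.66 and 7.16 in rescued libraries, a difference of 0.58 (SE 0.17, adjusted p = 0.031). ROC59 differed by 0.44 (SE 0.10, adjusted p = 0.013), ROC66 by 0.26 (SE 0.13, adjusted p = 0.14), ROC55 by 0.24 (SE 0.09, adjusted p = 0.068) and ROC114 by 0.04 (SE 0.08, adjusted p = 0.72). The difference was 0.31 (SE 0.10, adjusted p = 0.042) for ROC104 and 0.15 (SE 0.10, adjusted p = 0.3) for ROC7. ROC40 was at or below 0.0155 FPKM in the 6 libraries. These comparison genes were chosen after their values were seen.

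CLPD1, a chaperone gene of the Clp family, followed the pattern of PRR1. It was at 4.89, 5.36 and 5.66 FPKM in wild-type libraries, 16.8, 16.3 and 16.5 in mutant libraries and 0.511, 0.291 and 0.333 in rescued libraries, and fell by 2.19 (SE 0.10, adjusted p = 1.1e-05). LHCSR1, a light-harvesting protein that sheds excess light energy, was low in the mutant and the rescued strain. Values were 66.1, 73.4 and 64.1 FPKM in wild-type libraries, 15.5, 11.7 and 15.6 in rescued libraries and 9.37, 11.6 and 10.4 in mutant libraries. LHCSR1 fell by 2.18 (SE 0.12, adjusted p = 1.7e-05), without overlap. The related LHCSR3B overlapped between the strains, at 7.67, 6.31 and 2.03 and 2.91, 6.21 and 2.58 FPKM, with a difference of -0.31 (SE 0.39, adjusted p = 0.57). Of 9 tested photoprotection genes, LHCSR1 and the early light-induced protein gene ELIP9 were called lower and none higher (22.2%, against 2.34% of all genes). ELIP9 was at 4.76, 5.78 and 4.44 FPKM in wild-type libraries and 2.00, 1.19 and 0.919 in rescued libraries, and fell by 1.36 (SE 0.17, adjusted p = 0.0012). ELIP6, ELIP7 and ELIP8 were not called, with differences of 0.41, 0.86 and 0.92 and adjusted p-values of 0.028, 0.011 and 0.00096.

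NSG1, a gene known from nitrogen-starved gametogenesis, was low in the mutant and the rescued strain. Values were 199.5, 329 and 350.2 FPKM in wild-type libraries, 73.0, 52.4 and 81.8 in rescued libraries and 32.4, 79.4 and 26.9 in mutant libraries. The difference of rescued strain and wild type was -2.05 (SE 0.23, adjusted p = 0.00086). PRMT1, a protein arginine methyltransferase, overlapped between mutant and wild type, at 15.8, 20.4 and 17.8 FPKM beside 17.8, 21.4 and 26.7, and was at 5.71, 3.49 and 4.32 in rescued libraries, and fell by 2.06 (SE 0.18, adjusted p = 0.00025). LCI34, a gene induced by low CO2, was at 108, 95.4 and 109 FPKM in wild-type libraries, 155, 139 and 155 in mutant libraries and 31.8, 30.5 and 34.1 in rescued libraries. It fell by 1.67 (SE 0.09, adjusted p = 1.7e-05), the only call among 25 tested genes of the carbon concentrating mechanism (4%, against 2.34% of all genes). CCM1, the regulator of that mechanism, was higher in the rescued strain, at 11.9, 9.07 and 9.31 FPKM against 5.15, 6.15 and 4.39, by 0.83 (SE 0.13, adjusted p = 0.0032). TEF13, a gene known from thylakoid fractions, varied widely between libraries, at 30.7, 62.7 and 47.0 FPKM in wild-type libraries and 17.9, 6.48 and 3.37 in rescued libraries, and fell by 2.43 (SE 0.47, adjusted p = 0.0068).

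Genes of the cilia were lower as a group. The 3 ciliary lists, flagella-associated proteins, axoneme parts and intraflagellar transport, matched 452 genes, of which 344 passed the minimum. Of these, 33 were called lower and 3 higher (10.5%, against 2.34% of all genes), and 269 of 344 differences were negative. Their median was -0.33 beside -0.03 for all genes, and 0.08 for the mutant. Median ratios gave -0.30 and quantile normalization -0.32 for the rescued strain.

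Of the 3 ciliary lists, transport and axoneme had the lowest medians. All but 1 of the 33 tested genes of intraflagellar transport and the BBSome had negative differences, with a median of -0.60. Of the 33, 4 were called lower and 0 higher (12.1%, against 2.34% of all genes). IFT25, a small subunit of the trains that carry cargo into the cilium, was at 19.1, 9.12 and 11.5 FPKM in wild-type libraries, 5.89, 2.92 and 3.23 in rescued libraries and 8.38, 12.0 and 11.9 in mutant libraries, and fell by 1.49 (SE 0.28, adjusted p = 0.0057). IFT27, its partner in the train, fell by 1.37 (SE 0.35, adjusted p = 0.02), from 18.4, 7.93 and 8.33 to 5.86, 1.95 and 3.60 FPKM. IFT20 and IFT46 were lower too, with differences of -1.28 (SE 0.35, adjusted p = 0.025) and -1.09 (SE 0.27, adjusted p = 0.017). Of 59 tested genes for radial spokes, dyneins, the central pair and tubulins, 15 were called lower and 0 higher (25.4%, against 2.34% of all genes). Their median was -0.54.

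TUB1, a beta-tubulin gene, was at 219, 118 and 100.0 FPKM in wild-type libraries, 71.2, 27.4 and 48.7 in rescued libraries and 136, 159 and 120.0 in mutant libraries. It fell by 1.57 (SE 0.36, adjusted p = 0.013), and TUA2, an alpha-tubulin gene, fell by 1.31 (SE 0.27, adjusted p = 0.0088). TUB1 with TUB2, and TUA1 with TUA2, are nearly identical pairs, so each value may hold reads of the partner. LC8, a dynein light chain used in many complexes, was at 364, 290.3 and 268 FPKM in wild-type libraries, 176, 173 and 168 in mutant libraries and 126, 109 and 118 in rescued libraries, and fell by 1.37 (SE 0.12, adjusted p = 0.00031). The groups did not overlap for LC8, and it was chosen after its values were seen.

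Flagella-associated proteins, the FAP genes, leaned lower, with a median of -0.26 and 190 negative and 62 positive differences. Of 252 tested, 14 were called lower and 3 higher (6.75%, against 2.34% of all genes). Whatever the size, 77 had an adjusted p under 0.05 and were lower and 14 were higher, against 18.6% and 14.5% of all genes. FAP291 was at 26.0, 19.4 and 17.5 FPKM in wild-type libraries, 32.9, 29.8 and 32.5 in mutant libraries and 2.93, 1.08 and 2.98 in rescued libraries, the largest fall among genes with a symbol, with a difference of -2.76 (SE 0.25, adjusted p = 0.00032). FAP393, on chromosome 6, was at 4.79, 4.27 and 4.50 FPKM in wild-type libraries, 4.71, 4.43 and 3.90 in mutant libraries and 0.794, 0.362 and 0.444 in rescued libraries. Wild type and mutant overlapped, and the rescued strain fell by 1.86 (SE 0.12, adjusted p = 5.0e-05). FAP252 fell by 1.41 (SE 0.38, adjusted p = 0.023).

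The ciliary result leaned on single libraries. The mean of the 344 genes, relative to the wild-type mean, was 0.26, -0.04 and -0.22 in the wild-type libraries and -0.16, -0.54 and -0.34 in the rescued libraries, so wild-type replicate 3 lay below rescued replicate 1. The count of 33 lower genes was 9 without wild-type replicate 1, 12 without rescued replicate 2, 57 without wild-type replicate 3 and 51 without rescued replicate 1. Median differences stayed negative in those 4 fits, at -0.24, -0.26, -0.41 and -0.39. FAP252, DLT4, IFT20 and IFT46 were not called without wild-type replicate 1, at -1.07 (adjusted p = 0.058), -0.92, -0.92 and -0.82. Neither was HSP70H, a gene of the heat shock list, at -0.71. IFT20, IFT46 and FAP252 were also lost without rescued replicate 2, at -0.97, -0.86 and -0.99. With robust moderation the count of lower genes was 21, and TUB1, IFT27, FAP252 and IFT20 were not called, with adjusted p-values of 0.059, 0.075, 0.089 and 0.09. Without rescued replicate 3, IFT20 and IFT27 had adjusted p-values of 0.058 and 0.054.

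**Figure D4:**
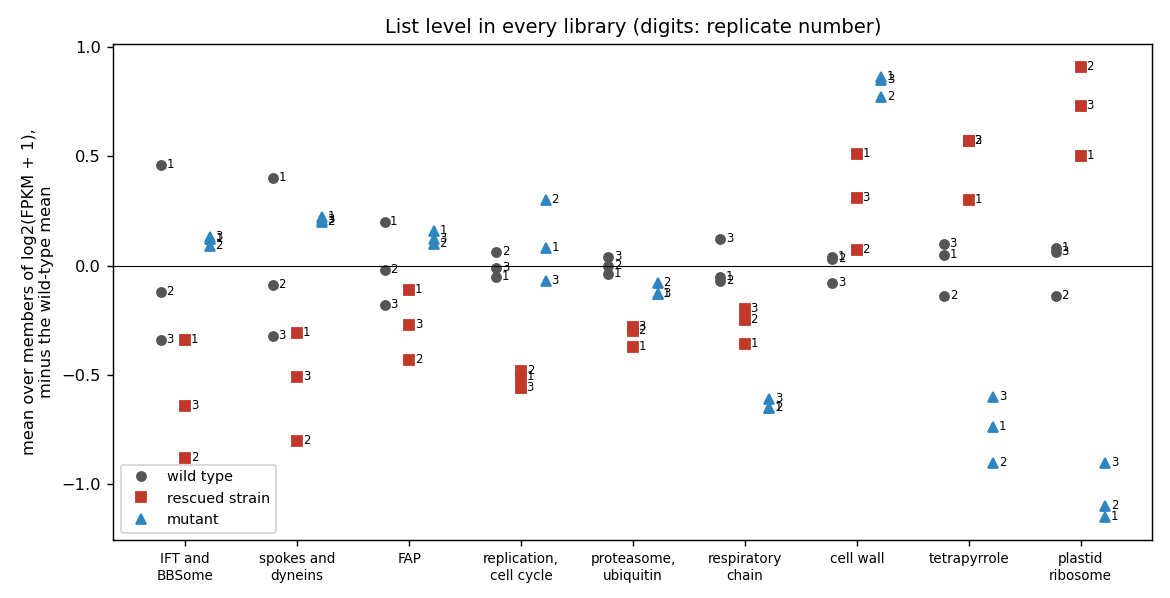
Mean log2(FPKM + 1) over the tested members of 9 gene lists in each library, with the wild-type mean set to 0; digits beside the points are replicate numbers. In the ciliary lists at the left the wild-type libraries spread as far as the strains differ, whereas in each of the other lists the wild-type and rescued libraries do not overlap. The narrowest gap is in the cell wall list, with rescued replicate 2 at 0.07 and wild-type replicate 1 at 0.04.

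Genes of DNA replication and the cell cycle were lower, in each rescued library. The mean of the 32 tested genes was -0.51, -0.48 and -0.56 in the rescued libraries against -0.05, 0.06 and -0.01 in the wild type. The list matched 65 genes, and 33 were below the minimum for the test. Of the 32 tested, 7 were called lower and 0 higher (21.9%, against 2.34% of all genes), with a median of -0.44. Whatever the size, 19 had an adjusted p under 0.05 and were lower (against 18.6% of all genes), and SMC6B, of the SMC family, was higher.

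The subunits of the MCM helicase, which unwinds DNA ahead of the replication fork, showed this as a set. MCM6 was at 1.88, 2.46 and 1.95 FPKM in wild-type libraries, 0.121, 0.197 and 0.0407 in rescued libraries and 4.73, 7.77 and 2.87 in mutant libraries. It fell by 1.47 (SE 0.11, adjusted p = 0.00013), and MCM7 fell by 1.39 (SE 0.12, adjusted p = 0.00025), from 2.08, 2.88 and 2.36 to 0.365, 0.384 and 0.189 FPKM. MCM5 went from 1.78, 1.71 and 1.91 to 0.744, 0.547 and 0.458 FPKM and differed by -0.82 (SE 0.10, adjusted p = 0.0013), under the limit for a call. MCM2, MCM3 and MCM4 were below 1 FPKM on average and were not tested, and every rescued library lay below every wild-type library in each. MCM2 was at 1.19, 1.25 and 1.11 FPKM in wild-type libraries and at 0, 0.0517 and 0.0143 in rescued libraries. MCM4 was at 0.874, 1.53 and 0.902 FPKM in wild-type libraries and at 0.0255, 0 and 0.0368 in rescued libraries. All these values are low, and MCM2 to MCM5 were chosen after their values were seen.

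Other members acted in nucleotide supply and cell cycle control. RIR1, the large subunit of ribonucleotide reductase, was at 6.01, 7.20 and 6.61 FPKM in wild-type libraries, 2.45, 2.30 and 2.09 in rescued libraries and 12.8, 19.7 and 7.41 in mutant libraries, and fell by 1.21 (SE 0.09, adjusted p = 0.00014). CYCD2, a D-type cyclin, was at 35.1, 44.8 and 38.2 FPKM in wild-type libraries, 18.8, 18.6 and 17.6 in rescued libraries and 21.9, 22.0 and 18.7 in mutant libraries, and fell by 1.06 (SE 0.10, adjusted p = 0.00039). Its difference was -0.96 without wild-type replicate 2 and -0.90 after quantile normalization. CDKG1, a kinase that sets the number of divisions by cell size, was called at -1.02. The list's 7 calls became 4 without wild-type replicate 2, 3 without wild-type replicate 3 and 4 under each rescaling.

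Plastid ribosomal protein genes were higher than in the wild type by less than the limit for a call in most cases. All 37 plastid ribosomal protein genes passed the minimum, 36 were higher on average, and 33 had an adjusted p under 0.05 and were higher, against 14.5% of all genes. Their median difference was 0.79, and that of the mutant was -1.10. Rescued libraries stood at 0.50, 0.91 and 0.73 relative to the wild-type mean, wild-type libraries at 0.08, -0.14 and 0.06. PRPS10, a protein of the small plastid subunit, was at 136, 109 and 132 FPKM in wild-type libraries, 213, 298 and 264 in rescued libraries and 48.5, 46.8 and 57.0 in mutant libraries. It rose by 1.02 (SE 0.14, adjusted p = 0.0018), PRPS5 rose by 1.01 (SE 0.11, adjusted p = 0.00063), and PRPL1, of the large subunit, differed by 1.00 (SE 0.14, adjusted p = 0.0019). PSRP1, a plastid-specific ribosomal protein, was the 1 gene of the list with a negative difference, -0.35 (SE 0.14, adjusted p = 0.094). Few of these genes reached a difference of 1, and 2 were called (5.41%, against 2.34% of all genes). The number called was 0 without wild-type replicate 2 or rescued replicate 2, 5 without wild-type replicate 1 or 3, and 8 without rescued replicate 1. It was 5 with median ratios and 8 with quantile normalization. PRPS10 was also not called without rescued replicate 3.

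Tetrapyrrole synthesis, the pathway to chlorophyll and haem, followed the same order of strains. Of 26 tested genes, 17 had an adjusted p under 0.05 and were higher (against 14.5% of all genes), 1 was lower (against 18.6%), and the median was 0.51, against -1.07 for the mutant. GSA1, which makes the first precursor, 5-aminolevulinate, was at 179, 145 and 219 FPKM in wild-type libraries, 291, 381 and 377 in rescued libraries and 51.3, 43.3 and 54.1 in mutant libraries. Its difference was 0.96 (SE 0.16, adjusted p = 0.004). ALAD1, the next enzyme, differed by 0.68 (SE 0.14, adjusted p = 0.0077). UROD1, a uroporphyrinogen decarboxylase, was at 213, 157 and 200.4 FPKM in wild-type libraries, 317, 486 and 463 in rescued libraries and 57.3, 44.8 and 61.3 in mutant libraries, and rose by 1.13 (SE 0.18, adjusted p = 0.0029).

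The branch to chlorophyll was uneven. Magnesium chelatase, its first enzyme, has 3 kinds of subunit: CHLD1 rose by 1.02 (SE 0.13, adjusted p = 0.0016), CHLI1 differed by 0.96 (SE 0.15, adjusted p = 0.0029) and CHLH1 by 0.27 (SE 0.08, adjusted p = 0.032). Also in the list, CHLI2 differed by 0.60 (SE 0.12, adjusted p = 0.007) and CHLH2 by 0.69 (SE 0.12, adjusted p = 0.0049). CHLH2 was low, at 3.00, 4.34 and 3.62 FPKM in wild-type libraries and 7.29, 6.18 and 6.01 in rescued libraries. CHLM1, the next step, differed by 0.81 (SE 0.15, adjusted p = 0.0058). POR1, the light-dependent reductase, was at 917, 744 and 856 FPKM in wild-type libraries and 921, 1040.0 and 1027 in rescued libraries, and differed by 0.25 (SE 0.11, adjusted p = 0.099). UROD1 and CHLD1 were the 2 calls of the list (7.69%, against 2.34% of all genes). Without wild-type replicate 2, rescued replicate 2 or rescued replicate 3, CHLD1 was at 0.92, 0.95 and 0.97 and 1 call remained. Without wild-type replicate 3 or rescued replicate 1 there were 4 calls. The genes named from GSA1 on, other than the 2 called, were chosen after their values were seen.

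Photosynthesis genes gave no call. None of 21 light-harvesting antenna genes, 23 photosystem, cytochrome and ATP synthase genes or 16 Calvin cycle genes was called, with medians of -0.09, -0.10 and 0.10. The 70 cytosolic ribosomal protein genes had a median of -0.11, and none had an adjusted p under 0.05.

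Pherophorins, hydroxyproline-rich glycoproteins of the extracellular matrix, held most of the changes in the cell wall list. Of 29 tested genes, 5 were called higher, all of them pherophorins, and 1 pherophorin, PHC15, was called lower (20.7%, against 2.34% of all genes). The list's median was 0.15, and 19 of its 48 matched genes were below the minimum for the test. PHC35 was at 24.2, 28.4 and 23.1 FPKM in wild-type libraries, 102, 48.0 and 77.0 in rescued libraries and 98.2, 86.8 and 99.0 in mutant libraries, and rose by 1.49 (SE 0.23, adjusted p = 0.0029). PHC24 was at 137, 151 and 123 FPKM in wild-type libraries, 506, 240.5 and 397 in rescued libraries and 272, 255 and 287 in mutant libraries, and rose by 1.41 (SE 0.23, adjusted p = 0.0037). Every mutant library was above every wild-type library in both genes too. PHC8 rose by 1.22 (SE 0.20, adjusted p = 0.0035) and PHC2 by 1.21 (SE 0.21, adjusted p = 0.0044), while the mutant differed from the wild type by 2.40 and 1.73.

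PHC15 was the exception, at 13.0, 7.72 and 10.4 FPKM in wild-type libraries, 66.9, 55.8 and 51.1 in mutant libraries and 5.39, 2.14 and 3.29 in rescued libraries. The mutant was above and the rescued strain below the wild type, with a difference of -1.34 (SE 0.26, adjusted p = 0.0063). Rescued replicate 2 was the lowest rescued library for PHC35, PHC24, PHC8 and PHC2. The 5 rises became 3 without rescued replicate 1, where PHC2 was at 0.99, and 9 without rescued replicate 2. Pherophorin genes resemble each other, and the handling of shared reads is unknown here. Among all symbol stems with at least 10 tested genes, PHC had a median of 0.85 over 16 genes, 14 of them positive.

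Few protein folding genes were called, and those called were lower. HSP70A, the cytosolic HSP70, was at 345, 345 and 377 FPKM in wild-type libraries, 172, 158 and 151 in rescued libraries and 221, 260.0 and 219 in mutant libraries. It fell by 1.15 (SE 0.09, adjusted p = 0.00013), with the mutant between the other strains. HSP90A, of the cytosol as well, differed by -0.61 (SE 0.08, adjusted p = 0.0014). The 42 tested heat shock and chaperonin genes had 2 calls, HSP70A and HSP70H, both lower (4.76%, against 2.34% of all genes). Whatever the size, 19 had an adjusted p under 0.05 and were lower and 6 were higher, against 18.6% and 14.5% of all genes, and the median was -0.13. HSP70H was called at -1.02, and was at -0.99 with median ratios, -0.71 without wild-type replicate 1 and -0.84 (adjusted p = 0.055) without rescued replicate 2. Of 51 tested cyclophilin and FK506-binding protein genes, 3 were called, all lower (5.88%, against 2.34% of all genes). In this list 23 differences were positive and 28 negative, and the median was -0.07. The 3 called genes, the prolyl isomerase genes CYN19B, FKB12 and CYN20A, had differences of -1.09 (SE 0.10, adjusted p = 0.00031), -1.05 (SE 0.09, adjusted p = 0.00027) and -1.03 (SE 0.08, adjusted p = 0.00019), and with quantile normalization none of the 3 was called. CYN20A was at -0.99 with median ratios and without wild-type replicate 3 or rescued replicate 1.

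Among redox genes, TRXH2, a thioredoxin, was at 26.3, 28.9 and 31.8 FPKM in wild-type libraries, 33.7, 33.2 and 31.3 in mutant libraries and 10.6, 14.9 and 12.1 in rescued libraries, and fell by 1.15 (SE 0.13, adjusted p = 0.00077). NTR2, a thioredoxin reductase, was at 15.4, 15.3 and 16.2 FPKM in wild-type libraries, 7.90, 6.39 and 7.16 in rescued libraries and 38.8, 38.6 and 41.1 in mutant libraries. It fell by 1.03 (SE 0.09, adjusted p = 0.0003) while the mutant was above the wild type, and its difference was -0.96 without rescued replicate 2, -0.99 with median ratios and -0.94 with quantile normalization. CGLD37, a gene conserved in the green lineage, was the only one of 186 such genes called (0.538%, against 2.34% of all genes). It was at 942, 1054 and 1317 FPKM in wild-type libraries, 316, 327 and 402 in rescued libraries and 681, 738 and 739.8 in mutant libraries, and fell by 1.66 (SE 0.14, adjusted p = 0.00027).

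Some lists with no call held many small differences. Of 46 proteasome and ubiquitin ligase genes, 29 had an adjusted p under 0.05 and were lower and 2 were higher, with a median of -0.36, or -0.24 with quantile normalization. Of 94 genes of the mitochondrial respiratory chain, 46 were lower on that criterion and 1 higher, with a median of -0.28, against -0.69 in the mutant. Vesicle traffic genes, 89 in number, included 31 lower and 6 higher, with a median of -0.19. The share of all genes lower on that criterion was 18.6%. Other lists with no call were even, such as phosphorus and sulfur starvation, with 20 positive and 20 negative differences, and cytochromes P450, with 11 and 11.

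**Figure D5:**
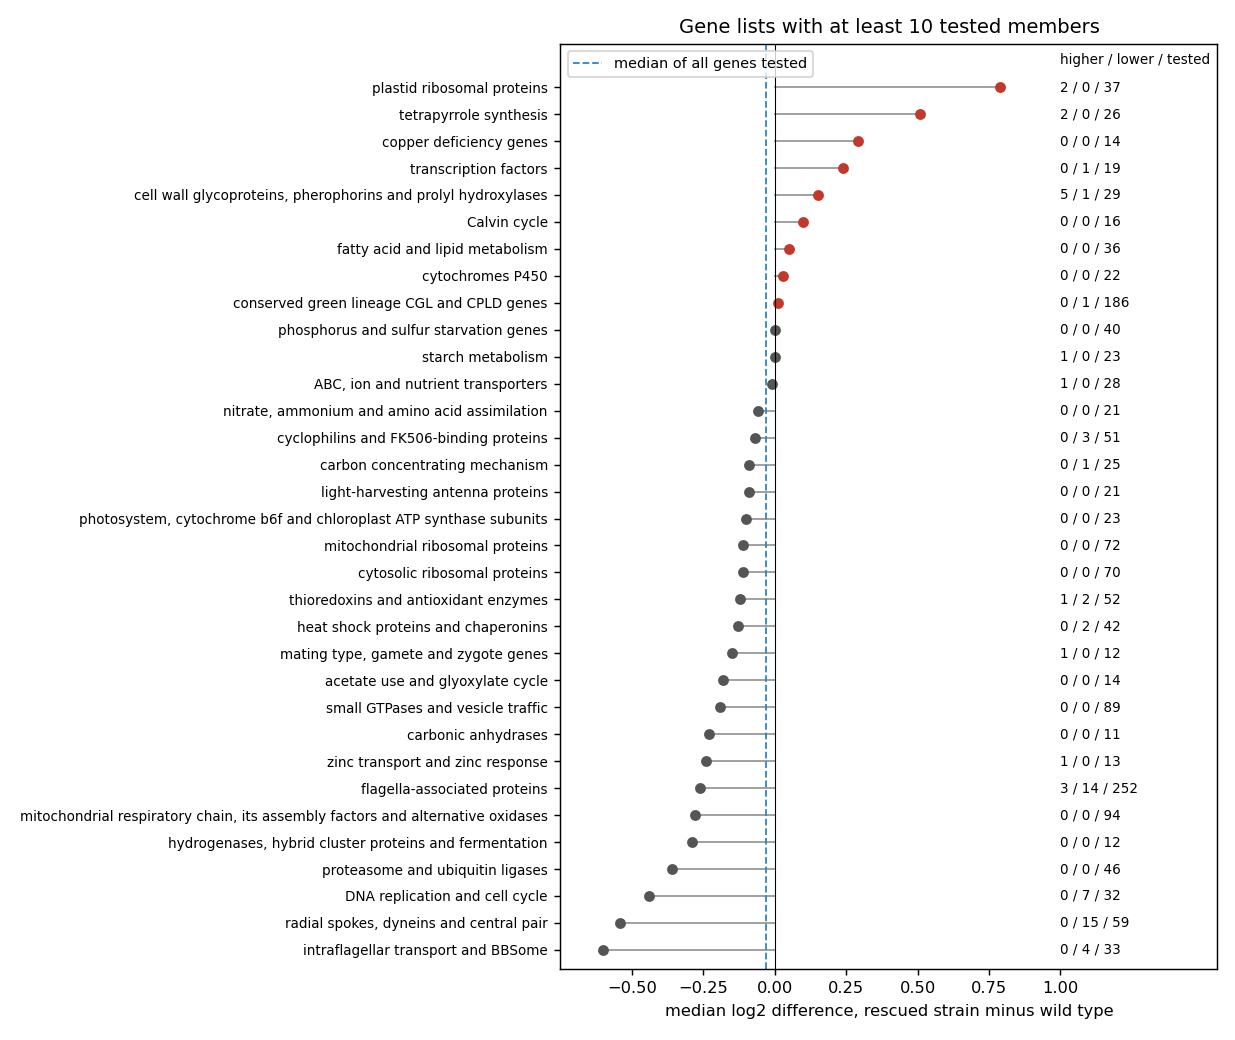
Median log2(FPKM + 1) difference of rescued strain minus wild type (x axis) for the gene lists with at least 10 tested members; the digits at the right give the members called higher, called lower and tested. Plastid ribosomal proteins (0.79) and tetrapyrrole synthesis (0.51) lie at the top and intraflagellar transport (-0.60) at the bottom, with the dashed line at -0.03 for all genes tested.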

How the data were processed

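The authors deposited FPKM per gene for each of 9 libraries, and 1 FPKM value per strain, which lay within 1% of the replicate means for 96.3% to 97.8% of genes. PolyA RNA was read as paired 125 bp ends, per the labels' protocols, and STAR 2.7.10b and Cuffdiff 2.0.2 are named in the submitters' processing notes. The sources used here do not give the genome build; identifiers carry the suffix of annotation version 6.1, and the tables' symbol column names 4326 genes. Groups and replicate numbers came from the sample titles. Depth is unknown. Steps between the lowest FPKM values gave depths of 0.933 to 1.14 relative to wild-type replicate 1, but only 13.0% to 24.5% of low genes lay within 5% of the step, so reads were not recovered and no count model was used.

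Values were taken as log2(FPKM + 1) and fitted with limma 3.58.1 in R 4.3.3 (group means, trended moderation, two-sided, 4 residual degrees of freedom). FPKM depend on the rest of the library, so rescaling by median ratios and quantile normalization were among the alternatives, with other pseudocounts and minimum levels, other moderation, a fit on all 9 libraries, a replicate block and leaving out each library. On simulated data for this comparison, 200 of 10940 genes were given a shift of 2 log2 units, in noise independent between genes and libraries. Of these, 96.0% were recovered, with 2 false calls. Differences near the limit of 1 and effects shared by a whole library were not simulated, so these figures do not give the accuracy of the calls. The p-values measure the spread between 3 cultures of 1 strain.

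The members, the 38 gene lists, the tests and the named-gene rule were chosen with earlier results of these data known; members that a symbol had placed in a wrong list were moved or removed by identity after values were seen. Named were CEHC1, CRR1, the 10 largest rises and falls with a symbol whose libraries did not overlap, the 2 largest of each without one, and at most 4 called members of each list. Other genes, among them the copper and hydrogen genes, the ELIP, ROC, CCM1 and neighbouring genes, were chosen after their values were seen, as were the limits for genes near 0, runs of neighbours and symbol stems. Genes were ordered by identifier number within a chromosome. Deviations of same-numbered libraries from their group means correlated at 0.10, -0.13 and 0.16, so the numbers did not pair the libraries.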

Additional observations from a re-analysis of the deposited data

How the results depend on the processing

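The counts of 256 called, 73 higher and 183 lower genes moved most with the pseudocount and the minimum difference. A pseudocount of 0.1 gave 537, 247 and 290, and one of 5 gave 74, 18 and 56. A minimum mean of 5 FPKM gave 144, 35 and 109, with fewer genes tested, and no minimum difference gave 3616, 1583 and 2033. Leaving out 1 library gave 252 to 293 called, 70 to 100 higher and 156 to 223 lower. Other rescalings, fits and moderations gave 232 to 262 called. Blocks of 25 genes with at least 5 called numbered 0, against 2 with at least 4 called, 3 with a pseudocount of 0.1, 387 with no minimum difference, and 0 to 1 without 1 library. The limit for genes near 0 was varied after the data were seen: 0.2 FPKM gave 16 genes in place of 8.

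With the replicate number as a block, 257 genes were called, 75 higher and 182 lower, and 254 were shared with the 256. The correlations of same-numbered libraries did not show that the numbers pair them. The block changed no call among the 76 named genes followed through the alternatives.

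Of 56 named genes that were called, 23 kept the call under every alternative that could test them and 33 lost it under at least 1, of which 27 did so with a pseudocount of 5. None changed direction. Low genes are limited by the unknown depth and by the pseudocount, and the ciliary counts by wild-type replicate 1 and rescued replicate 2. Only 1 rescued strain was measured.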

Other observations

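Further gene families, grouped by symbol stem after the values were seen, are given by their medians. The CCT stem, which holds subunits of the cytosolic chaperonin, had a median difference of -0.66 over 10 tested genes, 2 of them positive. The RPN stem, subunits of the proteasome's regulatory particle, had a median of -0.54 over 11 genes with 1 positive. ASA genes, the subunits particular to the mitochondrial ATP synthase of green algae, had a median of -0.41 over 10 genes with 0 positive, and COX genes one of -0.35 over 16 genes. Radial spoke genes, RSP, had a median of -0.85 over 16 genes with 0 positive and 4 called lower. The OPR genes, octotricopeptide repeat proteins that act on chloroplast transcripts, had a median of 0.19 over 36 genes, 26 of them positive, with 0 called. NCL genes, of a related repeat family, were positive in 14 of 14 with a median of 0.20. The median of all genes tested was -0.03.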
